A study of Mus musculus with 8 samples.

Results

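The Schlafen genes form a rodent-expanded family of interferon-inducible genes, and 7 of its members, Slfn1, Slfn2, Slfn3, Slfn4, Slfn5, Slfn8 and Slfn9, were described across all groups of the series. They were taken by gene symbol from the 50615 genes of the deposited table, and all 7 were among the 17625 genes that had enough counts to be tested. The sequenced RNA came from BMDMs (bone marrow-derived macrophages, grown in culture from marrow cells) of C57BL/6 mice that carried loxP-flanked alleles of the nuclear receptor coactivator Ncoa6. Ncoa6 fl/fl LysM CRE mice (Ncoa6-KO) expressed Cre recombinase from the lysozyme 2 locus, which is active in myeloid cells, and Ncoa6 fl/fl mice without Cre (called WT in the labels, Ncoa6-sufficient here) were the controls, so the floxed gene was shared by all groups. After 6 days of culture in 20 ng/ml M-CSF, BMDMs received either medium alone or 100 ng/ml LPS for 4 h and then 200 µg/ml monosodium urate (MSU) crystals for 2 h, a sequence that activates the NLRP3 inflammasome. A group consisted of 2 libraries, made from different mice, which gave 8 libraries over 4 groups, and the ages of the mice were not given. No group carried Cre without the floxed gene, so effects of Ncoa6 loss and of Cre cannot be told apart.

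Schlafen proteins share an N-terminal domain that binds RNA and, in several members, cuts tRNA. The mouse family is divided by length. The short members Slfn1 and Slfn2 hold little more than this domain, the intermediate members Slfn3 and Slfn4 add a linker domain, and the long members Slfn5, Slfn8 and Slfn9 also carry a C-terminal region related to RNA and DNA helicases. In immune cells the family is known for restraining growth and maintaining quiescence, and in macrophages its transcription follows type I interferon, the cytokine that LPS-treated macrophages release and respond to. Slfn2 protects tRNAs from cleavage in T cells and keeps T cells and monocytes quiescent, Slfn1 holds back thymocyte growth when overexpressed, Slfn4 is a marker and regulator of activated myeloid cells, and Slfn5 is a nuclear protein.

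The 7 genes lie together on chromosome 11 of the GRCm38 assembly, at chr11:82951349-83215154, a stretch of 264 kb with 22 annotated genes and pseudogenes. Slfn5 (ENSMUSG00000054404, chr11:82951349-82964840), Slfn2 (ENSMUSG00000072620, chr11:83065112-83070678), Slfn1 (ENSMUSG00000078763, chr11:83116849-83122670), Slfn4 (ENSMUSG00000000204, chr11:83175186-83190216) and Slfn3 (ENSMUSG00000018986, chr11:83191330-83215154) lie on the forward strand. Slfn9 (ENSMUSG00000069793, chr11:82978390-82991830) and Slfn8 (ENSMUSG00000035208, chr11:83002158-83020810) lie on the reverse strand. The coding sequence measured 1011 bp in Slfn1 and 1134 bp in Slfn2, 1806 bp in Slfn4 and 1920 bp in Slfn3, and 2652 bp in Slfn5 and 2730 bp in both Slfn8 and Slfn9. Slfn8 and Slfn9 were identical at 92.7% of aligned coding bases and Slfn3 and Slfn4 at 92.1%, whereas every other pair of members lay between 57.0% and 73.8%. Sequence stretches as long as 1 read (100 bases) that also occur in transcripts of another gene made up 3.71% of those of Slfn9, 3.38% of Slfn8, 2.92% of Slfn3 and at most 0.271% of the other members. Slfn8 and Slfn9 shared such stretches with each other and with the pseudogene Slfn10-ps, and reads from them can be split between these genes, which makes their values less certain. Slfn3 and Slfn4 shared none with each other, and those of Slfn3 occurred in transcripts of Gm11427, Gm42519 and 4930435F18Rik.

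Because the members rose together with the stimulus, their proximal promoters are shown, from windows of 250 bases before to 50 bases after the RefSeq transcription start (GRCm38.p6). Capitals mark matches to the interferon response factor core AANNGAAA, to the interferon-stimulated response element (ISRE), searched as GAAA, any 2 bases and GAAA again, which contains the core, and to the ETS-type motif AGGAAGT, on either strand. The short and intermediate members, each at the forward strand, read:
Slfn1, chr11:83116738-83116804: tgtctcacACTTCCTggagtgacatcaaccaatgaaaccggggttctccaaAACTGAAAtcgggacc
Slfn2, chr11:83065023-83065071: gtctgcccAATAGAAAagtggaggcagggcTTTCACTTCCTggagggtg
Slfn3, chr11:83191263-83191327: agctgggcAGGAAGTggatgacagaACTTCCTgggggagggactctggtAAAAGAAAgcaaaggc
Slfn4, chr11:83174953-83175127: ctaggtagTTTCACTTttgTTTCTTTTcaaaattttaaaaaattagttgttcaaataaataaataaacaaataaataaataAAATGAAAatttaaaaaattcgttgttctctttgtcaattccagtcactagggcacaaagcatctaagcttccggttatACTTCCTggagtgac

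The long members, with Slfn5 at the forward and Slfn8 and Slfn9 at the reverse strand, read:
Slfn5, chr11:82951935-82951964: ccccttcaAAGTGAAAAAGAAAaaaaaaaa
Slfn8, chr11:83020841-83020866: ttgagcagTTTCGTTTTCcccaaaag
Slfn9, chr11:82991858-82991883: ccgagcagTTTCGTTTTCccaaaaac

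The interferon response factor core was found in the windows of 7 of 7 members and in 23.9% of 32851 promoter windows of the genome. The full ISRE was found in 3 of 7 members, the long genes Slfn5, Slfn8 and Slfn9, and in 3.44% of all windows. The ETS-type motif divided the family the other way, with matches in Slfn1, Slfn2, Slfn3 and Slfn4 (4 of 7 members, 9.35% of all windows) and none in the long members. In Slfn2 the core and the ETS-type motif overlap in the run TTTCACTTCCT. The interferon-gamma activated site TTCNNNGAA, searched on both strands, had no match in the 7 members and was present in 8.3% of all windows. The ISRE match of Slfn9 ends 35 bases before the start of transcription and that of Slfn8 38 bases before it in the window shown and 126 bases before it in a second RefSeq window, whereas the nearest core match of Slfn4 ends 144 bases and that of Slfn5 145 bases before it. The Slfn5 stretch lies inside the gene span given above, since RefSeq places the start of transcription further downstream. The motifs were chosen after these sequences had been read, and a match is a description of the letters only.

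Read counts per library ranged from 25281955 to 33673552, and the 2 libraries of a group differed by more than sampling noise in every group. Ncoa6 itself, counted over the whole gene, was lower in the Ncoa6-KO groups, with 703 ± 115 against 1460 ± 77.7 normalized counts in medium (SD, n = 2) and 545 ± 26.3 against 1235 ± 87.3 with LPS + MSU. Macrophage markers were abundant in every library. Their 8 genes summed to between 248900 and 577700 normalized counts, and those of neutrophils to at most 992. Cd3g, Trbc2 and Ncr1 of T and NK cells were at 0 throughout, and sums reached at most 50.3 for B cells, 199.5 for T and NK cells, 207.8 for dendritic cells, 832.6 for stromal cells and 2149 for platelets and megakaryocytes. Single genes made up most of 3 of these sums. In stimulated Ncoa6-sufficient BMDMs, Pf4 of platelets had a mean of 1859, Lck of T and NK cells 137.6 and Xcr1 of dendritic cells 154.1. In libraries of bulk RNA, fewer cells of a type and less RNA per cell cannot be told apart.

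Stimulation with LPS + MSU raised every member, from a family that took up well under 1% of each library. The 7 genes together held 0.0721% and 0.0631% of the counts of Ncoa6-sufficient libraries in medium alone, and 0.478% and 0.437% with LPS + MSU. In Ncoa6-KO BMDMs the shares were 0.0554% and 0.0412% in medium alone and 0.394% and 0.357% with LPS + MSU. The stimulated libraries therefore stood above every unstimulated library, and within each culture condition both Ncoa6-KO libraries stood below both controls. The makeup of the family shifted with the stimulus. Slfn2 gave 42.2% to 43.5% of the family's counts in medium alone and 27.0% to 29.7% with LPS + MSU, whereas Slfn5 went from between 28.7% and 35.5% to between 42.3% and 44.7% and became the member with the most counts. Slfn4 gave 0.915% and 1.01% of the family in Ncoa6-sufficient BMDMs in medium and 6.47% and 6.65% with LPS + MSU, against 0.488% and 0.653%, then 3.32% and 3.75%, in Ncoa6-KO BMDMs.

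**Figure D1:**
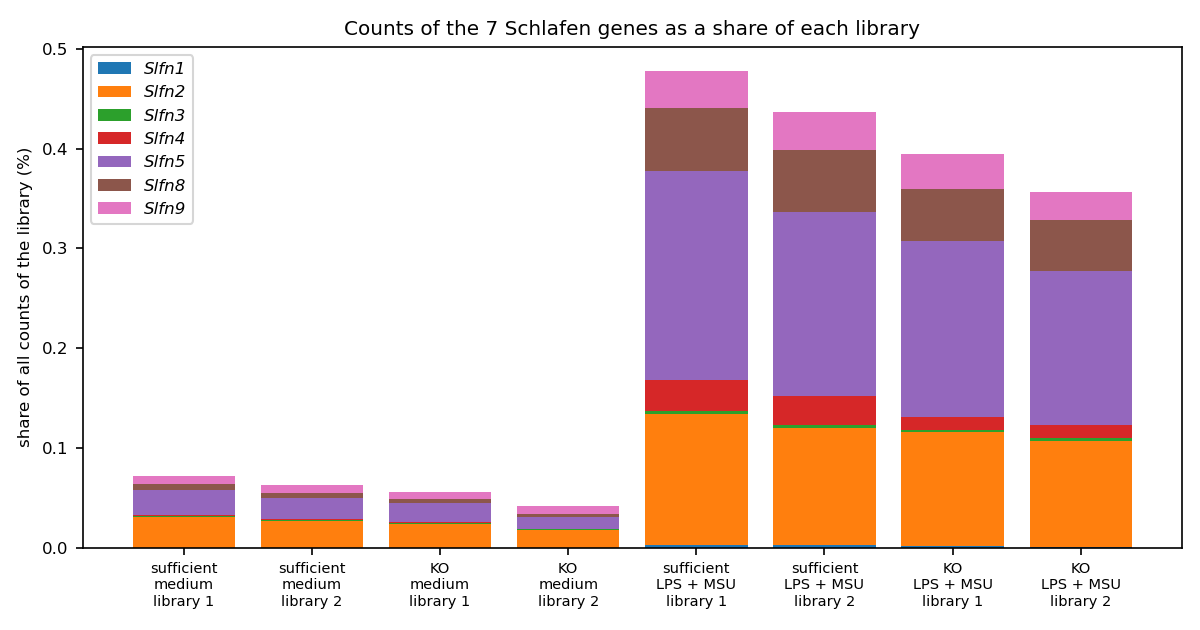
Counts of the 7 Schlafen genes as a percentage of all counts in each of the 8 libraries, as stacked bars coloured by gene. The bars reach 0.0412% to 0.0721% with medium alone and 0.357% to 0.478% with LPS + MSU, and Slfn5 and Slfn2 fill most of each bar.

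Among the short members, Slfn1 was almost silent without stimulus. It had 7.51 and 7.74 normalized counts (counts scaled to the mean library size) in Ncoa6-sufficient BMDMs in medium and 1036 and 888 with LPS + MSU. In Ncoa6-KO BMDMs the libraries gave 5.56 and 1.76 in medium and 519 and 385 with LPS + MSU. Behind the unstimulated values stood 10, 9, 8 and 2 reads, so that a genotype difference in medium was poorly resolved, whereas with LPS + MSU both Ncoa6-KO libraries lay far below both control libraries. Slfn2, by contrast, was plentiful in all 8 libraries. Its values were 7248 and 6377 in unstimulated and 50304 and 43718 in stimulated Ncoa6-sufficient BMDMs, and 5637 and 4023 in unstimulated and 41564 and 37459 in stimulated Ncoa6-KO BMDMs. The genotypes did not overlap in either condition, but with LPS + MSU the lower control library lay closer to the higher Ncoa6-KO library than to the other control.

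The intermediate pair, alike in sequence, differed in behaviour. Slfn3 had 255 and 217 normalized counts in Ncoa6-sufficient BMDMs in medium and 1086 and 1000 with LPS + MSU. The Ncoa6-KO libraries held 199 and 227 in medium, where the genotypes overlapped, and 964 and 979 with LPS + MSU. Slfn4 started lower than Slfn3 and ended far above it. In Ncoa6-sufficient BMDMs it had 173 and 136 normalized counts in medium and 11845 and 10785 with LPS + MSU. In Ncoa6-KO BMDMs it had 63.3 and 61.5 in medium and 4762 and 4735 with LPS + MSU, so that the genotypes were well separated under both conditions and the Ncoa6-KO libraries lay close to each other.

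The long members were expressed in medium and rose strongly with the stimulus. Slfn5, the nuclear member, had 5985 and 4917 normalized counts in unstimulated and 80322 and 68657 in stimulated Ncoa6-sufficient BMDMs. Its Ncoa6-KO values were 4608 and 2701 in medium and 64096 and 54531 with LPS + MSU. Slfn8 had 1429 and 1181 in medium and 24275 and 22926 with LPS + MSU in Ncoa6-sufficient BMDMs, against 1002 and 732, then 19099 and 18138, in Ncoa6-KO BMDMs. Slfn9 had 2083 and 2022 in medium and 14231 and 14208 with LPS + MSU in Ncoa6-sufficient BMDMs, against 1458 and 1663, then 12444 and 9950, in Ncoa6-KO BMDMs. None of the 3 long members overlapped between genotypes in either condition, where 24.5% of all tested genes in medium and 22.7% with LPS + MSU were lower without overlap, although for Slfn5 in medium both Ncoa6-KO libraries differed from each other by more than the group means did. The second Ncoa6-KO library in medium was the lowest of the 4 unstimulated libraries in 5 of 7 members, and the second Ncoa6-KO library with LPS + MSU the lowest stimulated library in 6 of 7. The lowest library was not counted over all tested genes.

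**Figure D2:**
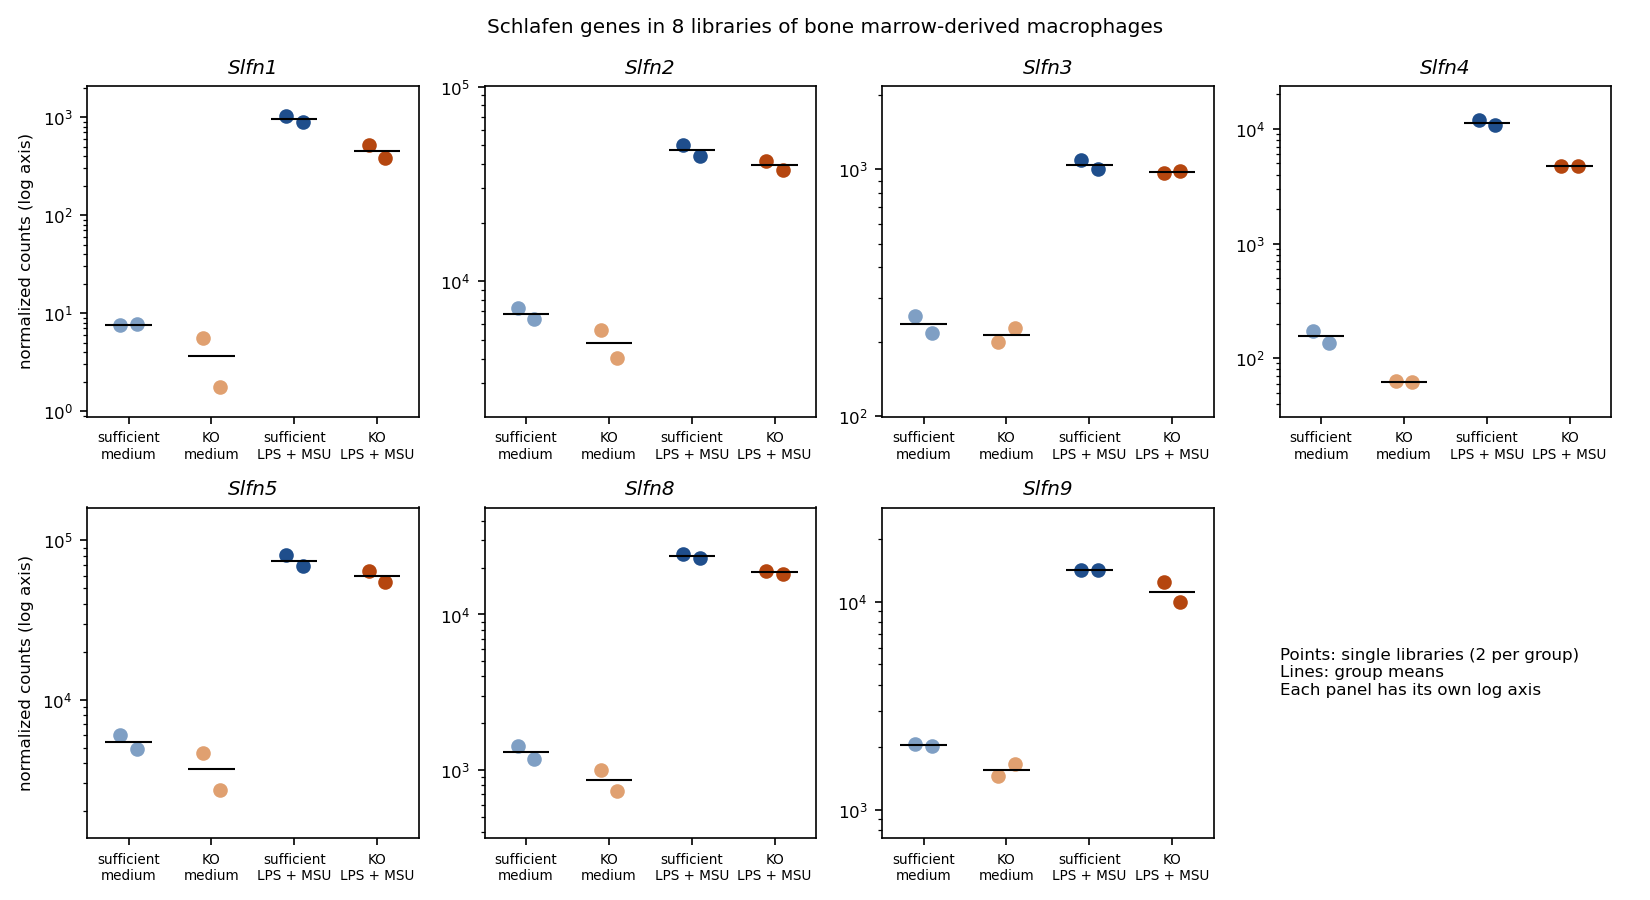
Normalized counts of each Schlafen gene on a log axis in the 4 groups, with points for the 2 libraries of a group and lines for their means. Stimulated libraries lie above unstimulated ones in every panel, and the widest gap between genotypes after stimulation is in Slfn4, at 11845 and 10785 against 4762 and 4735.

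Compared per kb of the longest coding transcript, so that genes of different length can be ranked, Slfn2 was the highest member in all 4 groups. In unstimulated Ncoa6-sufficient BMDMs the mean levels were 4094 normalized counts per kb for Slfn2, 912 for Slfn5, 356 for Slfn9, 325 for Slfn8, 120 for Slfn3, 39.1 for Slfn4 and 4.09 for Slfn1. Slfn9 and Slfn8 overlapped in their libraries, and all other neighbours in this order were separate. With LPS + MSU the order became Slfn2 at 28250, Slfn5 at 12460, Slfn8 at 5884, Slfn4 at 2859, Slfn9 at 2465, Slfn3 at 530.5 and Slfn1 at 516, and only the last pair overlapped. Slfn4 thus passed Slfn9 in stimulated Ncoa6-sufficient BMDMs, with 2725 and 2993 against 2463 and 2467 in single libraries. In stimulated Ncoa6-KO BMDMs Slfn9, at 1941, stayed above Slfn4, at 1200. Per kb of coding sequence alone, the order was the same except that Slfn1, at 952, lay above Slfn3, at 543, in stimulated Ncoa6-sufficient BMDMs.

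The first question of the design was how LPS + MSU changed the family in each genotype. All 7 members rose in both genotypes, by edgeR's quasi-likelihood test with Benjamini-Hochberg adjustment over all tested genes, and Slfn1 and Slfn4 rose most. In Ncoa6-sufficient BMDMs, 24.7% of all tested genes rose and 30.5% fell by the same test, and in Ncoa6-KO BMDMs 25.2% rose and 27.9% fell. The median log2 fold change of the members was 3.77 and 4.02, against −0.12 and −0.07 over all genes. Slfn1 rose by 6.96 (SE 0.262) in Ncoa6-sufficient and 6.82 (SE 0.299) in Ncoa6-KO BMDMs on the log2 scale, and stood at place 127 of 17625 genes ranked by their rise in Ncoa6-sufficient BMDMs. Its Ncoa6-KO value rested on 8 and 2 unstimulated reads and became 7.91 without the first and 6.32 without the second of these libraries. Slfn4, at place 198, rose by 6.19 (SE 0.138) and 6.25 (SE 0.145), a 72.9-fold and 75.9-fold change. The long members Slfn8 and Slfn5 followed, with 4.18 and 4.42 for Slfn8 and 3.77 and 4.02 for Slfn5. Slfn9 and Slfn2 rose by 2.79 each in Ncoa6-sufficient BMDMs, and by 2.84 and 3.03 in Ncoa6-KO BMDMs. Slfn3 rose least, by 2.14 and 2.19, which is a 4.41-fold and 4.57-fold change, at place 1814. The adjusted p-values of the members ran from 2.67e-10 to 1.46e-07 in Ncoa6-sufficient and from 2.56e-10 to 1.03e-07 in Ncoa6-KO BMDMs.

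In unstimulated BMDMs Slfn4 was lower in Ncoa6-KO than in Ncoa6-sufficient cells. It fell to 40.3% of the control level, a log2 fold change of −1.31 (SE 0.150, 95% interval −1.64 to −0.98, adjusted p = 0.00253, edgeR). This was 1 of 7 members called lower, where 1.3% of all tested genes were called lower. Log2 fold changes of the other members were −0.95 (SE 0.562) for Slfn1, −0.59 (SE 0.150) for Slfn8, −0.58 (SE 0.217) for Slfn5, −0.50 (SE 0.160) for Slfn2, −0.40 (SE 0.122) for Slfn9 and −0.15 (SE 0.122) for Slfn3, with adjusted p-values from 0.0863 for Slfn8 to 0.693 for Slfn3. All 7 values were below 0, as were those of 55.7% of all tested genes, and 5 of 7 had an unadjusted p under 0.05, against 12.8% of all genes in either direction. In 6 of 7 members both Ncoa6-KO libraries lay below both control libraries, which held for 24.5% of all genes, and the exception was Slfn3. DESeq2 called 3 members lower, Slfn2, Slfn4 and Slfn8, and in all 366 of the 11816 genes to which it gave an adjusted p-value. Slfn4 kept its call in 8 of 8 fits that each left out a library. The values of Slfn1, Slfn2, Slfn5 and Slfn8 depended on the unstimulated Ncoa6-KO libraries, with −2.04, −0.76, −1.01 and −0.83 without the first and −0.44, −0.27, −0.24 and −0.38 without the second.

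With LPS + MSU, Slfn4 and Slfn1 were lower in Ncoa6-KO than in Ncoa6-sufficient BMDMs. Slfn4 fell to 42.0% of the control level, with a log2 fold change of −1.25 (SE 0.108, 95% interval −1.49 to −1.01, adjusted p = 5.96e-04, edgeR). Slfn1 fell to 47.0%, with −1.09 (SE 0.167, 95% interval −1.46 to −0.72, adjusted p = 0.00829, edgeR). These were 2 of 7 members, where 1.63% of all tested genes were called lower. The other values were −0.34 (SE 0.120) for Slfn9, −0.34 (SE 0.145) for Slfn8, −0.33 (SE 0.215) for Slfn5, −0.25 (SE 0.159) for Slfn2 and −0.10 (SE 0.111) for Slfn3, with adjusted p-values from 0.160 to 0.702. Both Ncoa6-KO libraries lay below both controls in 7 of 7 members, which held for 22.7% of all genes, and 4 of 7 had an unadjusted p under 0.05, against 17.4% of all genes in either direction. The Slfn1 call was lost without the first stimulated control library (adjusted p = 0.0977) and without the second stimulated Ncoa6-KO library (adjusted p = 0.0983), whereas Slfn4 was called in 8 of 8 such fits.

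**Figure D3:**
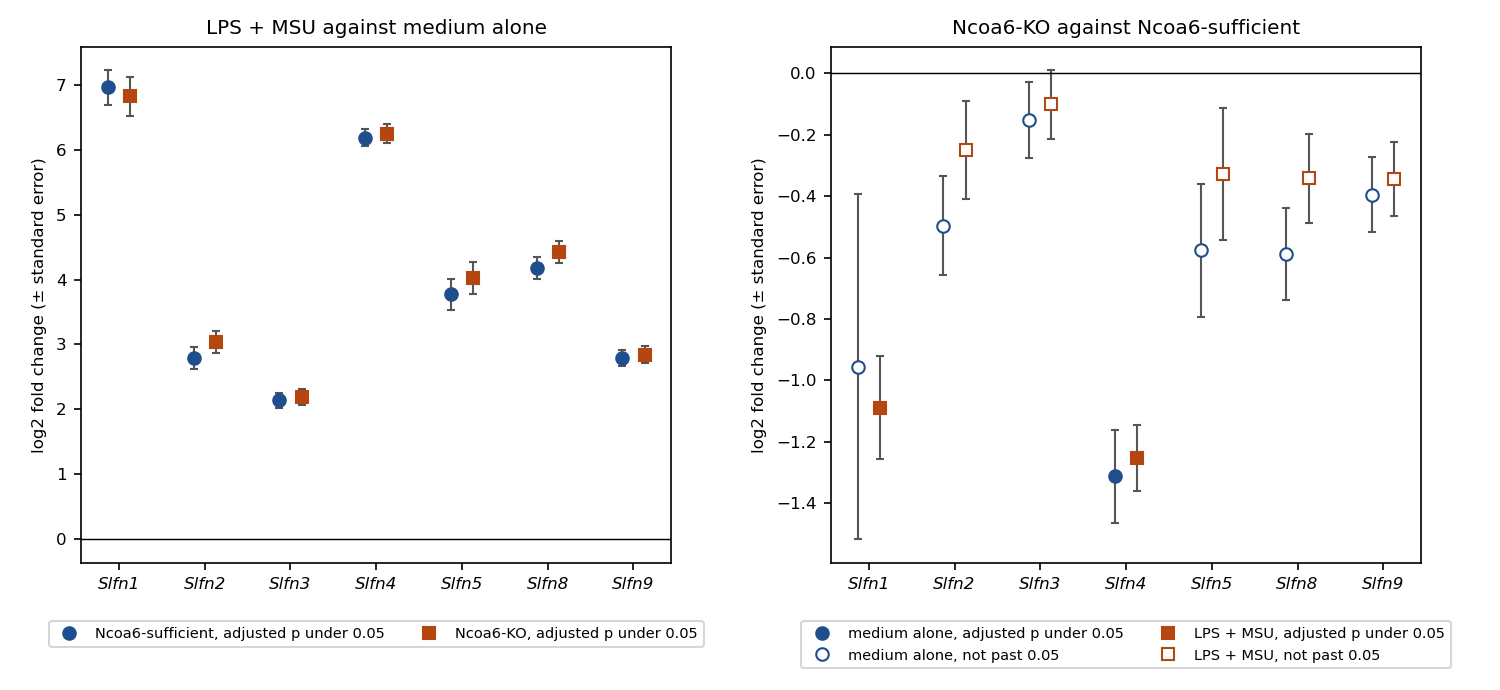
Log2 fold changes of the 7 Schlafen genes with their standard errors, for LPS + MSU against medium alone in each genotype (left) and for Ncoa6-KO against Ncoa6-sufficient BMDMs under each condition (right), with filled points for an adjusted p under 0.05. All points on the left are filled and lie between 2.14 and 6.96, and on the right Slfn4, at −1.31 and −1.25, and Slfn1 with LPS + MSU, at −1.09, are filled.

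Whether the knockout changed the response to LPS + MSU was tested as the interaction, the knockout effect with LPS + MSU minus that in medium. No member passed (adjusted p from 0.925 to 1, edgeR), 0 of 7 had an unadjusted p under 0.05, and among all tested genes 0 were called and 1045 (5.93%) had an unadjusted p under 0.05, while DESeq2 called 45. The difference for Slfn4 was 0.06 (SE 0.181, 95% interval −0.34 to 0.46). Slfn2, Slfn5 and Slfn8 had differences of 0.25 each, with intervals of −0.25 to 0.74, −0.42 to 0.92 and −0.21 to 0.71. For Slfn3 and Slfn9 the difference was 0.05 each, and for Slfn1 it was −0.13 with a wide interval of −1.75 to 1.49. Changes within these intervals cannot be told from none with 2 libraries per group.

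Along the cluster, Slfn1 and Slfn4, the members with the highest fold changes for LPS + MSU and the called knockout effects, follow each other in the order of members, at 165.5 and 223.8 kb from the start of Slfn5. Slfn4 and Slfn3 are also neighbours on the forward strand, with gene starts at 223.8 and 240.0 kb from that of Slfn5, and showed 6.19 and 2.14 for LPS + MSU in Ncoa6-sufficient BMDMs and −1.31 and −0.15 for the knockout in medium. Slfn9 and Slfn8 start at 40.48 and 69.46 kb on the reverse strand, followed by the pseudogene Slfn10-ps. Slfn10-ps rose as well, but by less than any member, with log2 fold changes of 1.24 (SE 0.106) and 1.06 (SE 0.107) and 491 to 516 normalized counts in medium and 1162 to 1213 with LPS + MSU in Ncoa6-sufficient BMDMs. Its genotype differences were −0.08 in medium and −0.26 with LPS + MSU, with adjusted p-values of 0.849 and 0.226 (edgeR). Slfn5os, an antisense gene that overlaps Slfn5, had 2 to 5 reads per unstimulated and 46 to 63 per stimulated library, and Gm20234, antisense to Slfn2, had 0 to 5 and 20 to 24. The libraries were stranded, but the strand setting of the counting was not given in the sources used here, so that reads of these antisense genes cannot be assigned with certainty. Slfn14 and Slfnl1, family genes outside the list, had at most 1 read in any library and were not tested.

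**Figure D4:**
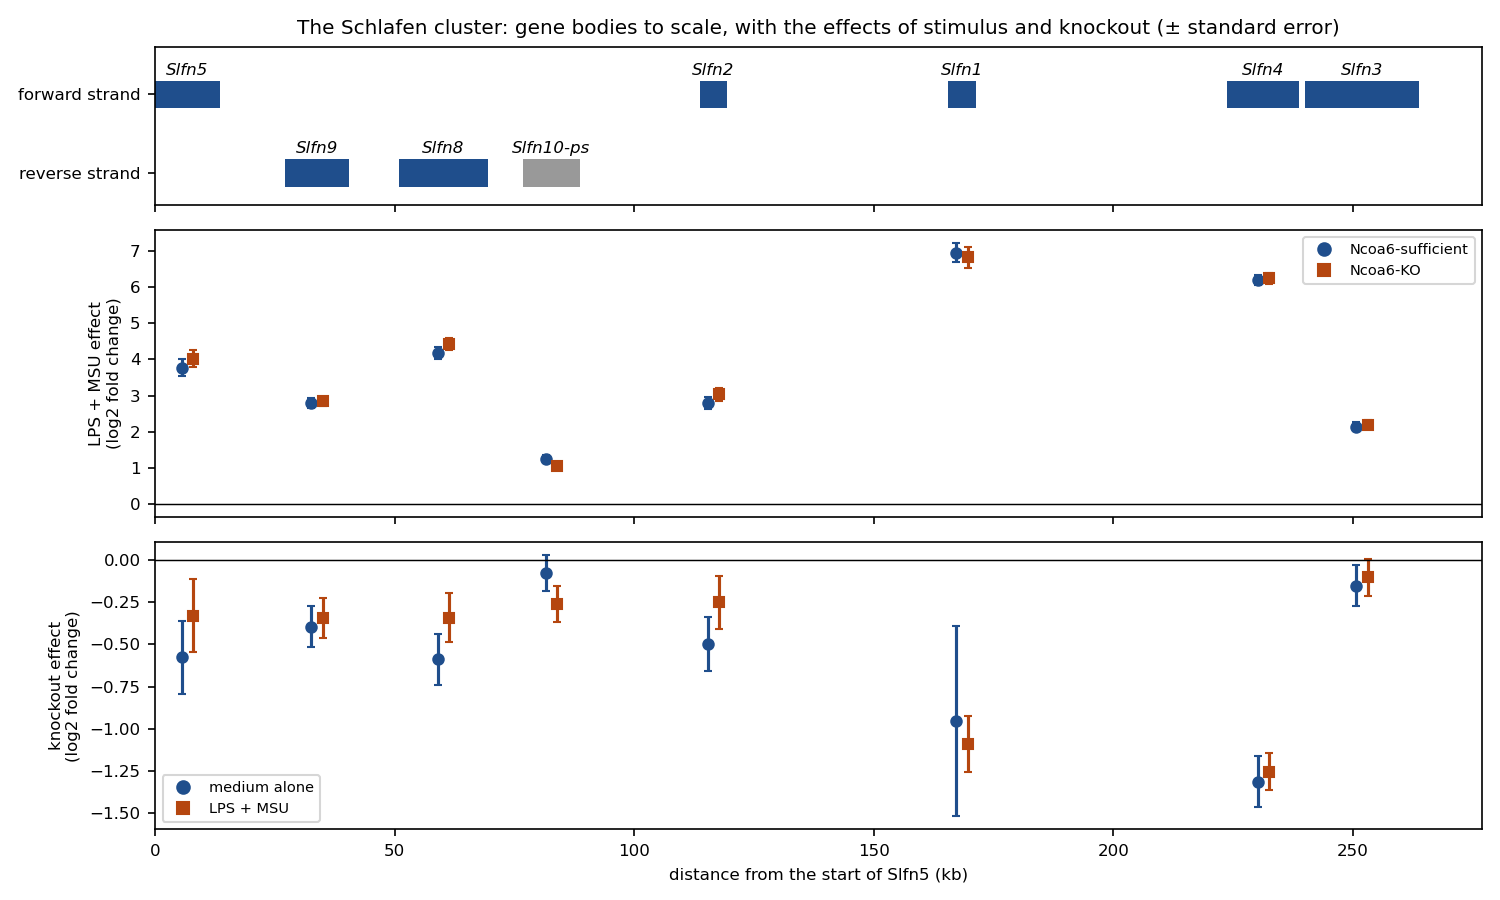
Gene bodies of the Schlafen cluster to scale by distance from the start of Slfn5 in kb (top, Slfn10-ps in grey), with log2 fold changes and standard errors for LPS + MSU in each genotype (middle) and for the knockout under each condition (bottom). Slfn1 and Slfn4, next to each other among the members, show the highest LPS + MSU and the lowest knockout values, and Slfn3, on the other side of Slfn4, has knockout values of −0.15 and −0.10.

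The genes of the interferon pathway gave the setting for these changes. Interferon-stimulated genes, 25 in the list, encode antiviral effectors and sensors, and all 25 rose with LPS + MSU in both genotypes, with median log2 fold changes of 4.63 and 5.54 and Cxcl10, a chemokine, and Mx1, a dynamin-like antiviral GTPase, rising most, by 9.28 and 7.54 in Ncoa6-sufficient BMDMs. In unstimulated BMDMs 17 of 25 were lower in Ncoa6-KO than in Ncoa6-sufficient cells, where 1.3% of all tested genes were called lower. The median of the 25 was −1.04, against −0.03 over all genes. The log2 fold change was −2.05 for Zbp1, a sensor of Z-form nucleic acids, −1.70 for Ifi44, −1.67 for Cxcl10 and −1.53 for Mx1. With LPS + MSU none of the 25 passed the test by edgeR or DESeq2, and their median was −0.25. None had an unadjusted p under 0.05, against 17.4% of all tested genes. The interaction of the 25 had a median of 0.77, with 0 of 25 called and 19 of 25 at an unadjusted p under 0.05. For the 7 Schlafen genes the interaction had a median of 0.06 and none at that limit. Over all tested genes the median was likewise 0.06, with 5.93% at that limit. The difference between the lists was not tested. Summed over the list, the unstimulated Ncoa6-KO libraries held 21850 and 34830 normalized counts and the controls 50430 and 61250. The count in medium depended on single libraries, as did that over all tested genes. DESeq2 called 24 of 25 lower in medium, and in all 366 of the 11816 genes to which it gave an adjusted p-value. The median of the 25 was −1.39 without the first and −0.74 without the second Ncoa6-KO library in medium, the range over the fits that left out a library. It was −1.04 without the first and −1.125 without the second control library in medium.

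**Figure D5:**
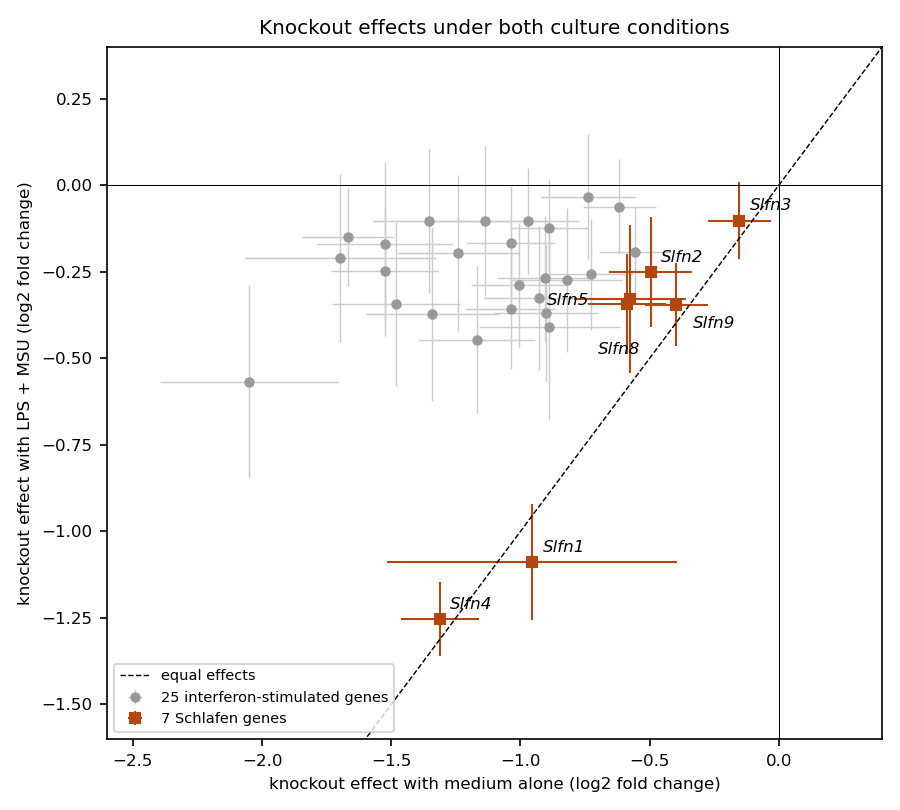
Knockout effect with medium alone (x axis) against that with LPS + MSU (y axis), as log2 fold changes with standard errors, for 7 Schlafen genes (squares) and 25 interferon-stimulated genes (circles), with a dashed line at equal effects. Slfn4, at −1.31 and −1.25, and Slfn1, at −0.95 and −1.09, lie near the line at the lower edge. Slfn2, at −0.50 and −0.25, Slfn5, at −0.58 and −0.33, and Slfn8, at −0.59 and −0.34, lie above the line. Slfn9, at −0.40 and −0.34, and Slfn3, at −0.15 and −0.10, lie close above it. The interferon-stimulated genes lie above the line, between −2.05 and −0.56 in medium and between −0.57 and −0.03 with LPS + MSU.

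Among 13 genes of type I interferon signalling, 12 rose and 1 fell with LPS + MSU in each genotype. Of all tested genes, 24.7% rose and 30.5% fell in Ncoa6-sufficient and 25.2% rose and 27.9% fell in Ncoa6-KO BMDMs. Ifnb1, which encodes interferon beta, went from a mean of 0.81 to 293.6 normalized counts in Ncoa6-sufficient and from 1.13 to 180.3 in Ncoa6-KO BMDMs, and its knockout difference with LPS + MSU was −0.70 (SE 0.198, adjusted p = 0.0867, edgeR). In medium, where 1.3% of all tested genes were called lower, 3 of 13 were lower in Ncoa6-KO BMDMs. They were the transcription factor Irf7 with −1.53, the signalling inhibitor Usp18 with −0.90 and the transcription factor subunit Stat2 with −0.72. With LPS + MSU none passed by edgeR and 1 by DESeq2. In that condition 4 of 13 had an unadjusted p under 0.05 by edgeR, against 17.4% of all tested genes. The count in medium depended on single libraries, as did that over all tested genes. The median of the 13 in medium was −0.29 in the main fit. It was −0.46 without the first and −0.25 without the second Ncoa6-KO library in medium, and −0.38 without the first and −0.35 without the second control library in medium.

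The other lists cover processes that Schlafen proteins are known to act on. With LPS + MSU, 24.7% of all tested genes rose and 30.5% fell in Ncoa6-sufficient BMDMs, and 25.2% rose and 27.9% fell in Ncoa6-KO BMDMs. Of 12 measured genes of tRNA cleavage and translational stress, 2 rose and 7 fell with LPS + MSU in Ncoa6-sufficient BMDMs, and 2 rose and 4 fell in Ncoa6-KO BMDMs. The kinase genes Eif2ak2 (PKR, a sensor of double-stranded RNA) and Eif2ak3 (PERK, a sensor of endoplasmic reticulum stress) changed by 2.68 and −2.56 in Ncoa6-sufficient and by 2.85 and −2.22 in Ncoa6-KO BMDMs. No gene of this list was called between genotypes in either condition, with 2 of 12 in medium and 3 of 12 with LPS + MSU at an unadjusted p under 0.05. Of all tested genes, 12.8% in medium and 17.4% with LPS + MSU had such a p. Of 18 genes of cell cycle entry and proliferation, 4 rose and 12 fell with LPS + MSU in each genotype, led by the cyclin genes Ccnd2, with 5.06 and 3.93, and Ccne2, with −3.12 and −3.47. Between genotypes 1 of 18 was lower in medium, the mitotic kinase gene Cdk1, with −0.48, where 1.3% of all tested genes were called lower. With LPS + MSU 4 were lower, among them Cdk1 with −0.65, and 1 was higher, the cell cycle inhibitor gene Cdkn1a, with 0.75. Of all tested genes, 1.63% were called lower and 1.96% higher in that condition.

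Levels of myeloid markers moved with the groups as well. Macrophage markers summed to 388700 and 456100 normalized counts in unstimulated Ncoa6-sufficient and 248900 and 288000 in unstimulated Ncoa6-KO BMDMs, and to 508000 and 577700 against 367000 and 393400 with LPS + MSU. Lyz2 was the largest part of these sums. Its means were 241000 against 119800 in medium and 243800 against 126300 with LPS + MSU. Adgre1, Csf1r and Cd68 were not called in either condition. Their log2 fold changes were −0.36, −0.25 and −0.13 in medium and −0.17, −0.16 and −0.06 with LPS + MSU. In each condition 3 of the 8 macrophage markers were called lower in Ncoa6-KO BMDMs and 8 of 8 had log2 fold changes below 0. Of all tested genes, 1.3% in medium and 1.63% with LPS + MSU were called lower, and 55.7% and 49.3% lay below 0. The called genes, named after their values were seen, were Fcgr1, an Fc receptor gene, with −2.05, Lyz2, the locus that carries Cre, with −1.01, and Cd14, an LPS co-receptor gene, with −0.78 in medium, and Fcgr1 with −1.38, Lyz2 with −0.95 and the integrin gene Itgam with −0.51 with LPS + MSU. Markers of inflammatory monocytes summed to 424.1 and 436.1 in unstimulated controls and 582.6 and 901.8 in unstimulated Ncoa6-KO BMDMs. With LPS + MSU they summed to between 7897 and 10740 in controls and between 6201 and 6558 in Ncoa6-KO BMDMs. Between genotypes 0 of 6 were called in either condition. An unadjusted p under 0.05 was found for 3 of 6 in medium and 2 of 6 with LPS + MSU, against 12.8% and 17.4% of all tested genes. The part of the myeloid cells behind these markers in the lower Slfn4 and Slfn1 was not tested.

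The genes whose log2 normalized counts followed each member most closely over the 8 libraries differed among members, out of 11219 candidates outside the family. They were Mov10, Parp12 and Rnf114 for Slfn2, Mov10, Eng and Fxr1 for Slfn5, H2-T22, Tap1 and Trim12a for Slfn8, Aida, Mlkl and Pla1a for Slfn9, Ccl2, Ncoa5 and Ccl7 for Slfn3, Lcp2, Sik3 and Slc15a3 for Slfn4, and Lrp10 and 9930111J21Rik2 for Slfn1. Pearson's r of these pairs lay between 0.9985 and 0.9999. The 8 points are 2 clusters set by the stimulus, and between 437 genes for Slfn4 and 789 for Slfn8 had r above 0.99, and the points of every pair share the step between medium and LPS + MSU.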

How the data were processed

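Poly(A) RNA of 8 BMDM libraries was sequenced by the authors as stranded libraries in pairs of 100-base reads, aligned with STAR 2.7.3a to GRCm38 and counted with RSEM 1.3.3 per gene of release 101. The authors deposited RSEM's expected counts without scaling. Here they were rounded, genes with a sum under 10 were left out, as in the methods, and 17625 genes were fitted with edgeR 4.0.16 in R 4.3.3 (TMM, quasi-likelihood, 4 groups). Genes with a Benjamini-Hochberg adjusted p-value under 0.05 were called. Normalized counts were scaled to a common effective library size, the mean of 29332189. With 2 libraries against 2, no exact permutation p-value lies below 0.333, so p-values come from the model across genes and measure the spread between these libraries. Symbols were found for 50295 genes. Positions and transcripts come from GENCODE (GRCm38, another release), and promoter windows from RefSeq (GRCm38.p6), which held all 7 members.

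The members and gene lists were chosen with earlier results of these data known. The text names the 7 members, other Slfn entries, Ncoa6, up to 3 most alike genes per member (some items are not reported here), and from each pathway list at most the 4 called genes that changed most with the knockout in medium and the 2 in each other comparison. Alternatives were DESeq2 1.42.0, its size factors in edgeR, filterByExpr, no filter, limma-voom (limma 3.58.1), the replicate number as a term, only the 4 libraries compared, summed paralogues and leaving out each library; list counts without each library were added after seeing the data. The code was checked on simulated counts.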

Additional observations from a re-analysis of the deposited data

How the results depend on the processing

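The 7 members were called higher with LPS + MSU in both genotypes under every alternative run (with similar members summed, 5 of 5 features). For the knockout in medium, the 1 member called became 3 with DESeq2, 5 with no filter (Slfn2, Slfn4, Slfn5, Slfn8 and Slfn9) and 0 with the counts of similar members summed, where Slfn4 was not measured singly and Slfn3, which has more counts in medium, entered the same sum by construction, and ran from 1 to 4 when each library was left out. With LPS + MSU, the 2 members called ran from 1 to 2 when each library was left out. Slfn4 kept its call in both conditions under every alternative that measured it singly, with log2 fold changes of −1.47 to −1.12 in medium and −1.33 to −1.19 with LPS + MSU over the fits without 1 library; Slfn1 with LPS + MSU ranged from −1.34 to −0.89 there. The cause of these shifts was not tested.

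No interaction of a member passed under any alternative, and values near 0 changed sign. DESeq2 gave −0.0055 for Slfn3 and −0.0027 for Slfn9, DESeq2's size factors in edgeR −0.0049 and −0.0028, and limma-voom 0.0031 for Slfn1. Without 1 library each, Slfn1 ran from −0.64 to 0.95, Slfn3 from −0.075 to 0.16, Slfn4 from −0.13 to 0.22, Slfn5 from −0.087 to 0.68 and Slfn9 from −0.18 to 0.16.

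Deviations of libraries with the same number correlated by 0.257 between the culture conditions of Ncoa6-sufficient and by 0.334 between those of Ncoa6-KO BMDMs. Between genotypes the correlations ran from 0.0333 to 0.188. No label ties a number to a mouse, and whether a number marks the same mouse in both conditions was not tested. With the replicate block, 5 members (Slfn2, Slfn4, Slfn5, Slfn8 and Slfn9) were called in medium, with adjusted p from 0.00302 for Slfn8 to 0.0434 for Slfn9 among those added, and 3 with LPS + MSU (adding Slfn8). With the replicate block within genotype, 5 and 4 (adding Slfn8 and Slfn9) were called.

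Over all genes, 331 were called for the knockout in medium and 632 with LPS + MSU; the numbers were 506 and 849 with DESeq2, 1152 and 1611 with no filter, 1023 and 1532 with the block, 1530 and 2000 with the block within genotype, and 347 with LPS + MSU when only the 4 libraries compared were fitted. In medium 22, 81 and 103 were called without the first control, the second control and the second Ncoa6-KO library of that condition. With LPS + MSU 49, 417 and 63 were called without the first control, the second control and the second Ncoa6-KO library of that condition, and 355 and 359 without the first and second control library in medium. The interaction called 0 genes, but 45 with DESeq2, 269 with no filter, 86 with the block, 444 with the block within genotype, and 1 and 16 without the second stimulated control and the first unstimulated Ncoa6-KO library. With LPS + MSU, 345 genes were higher and 287 lower in the main fit, against 344 and 505 with DESeq2, whose size factors also moved the median of all genes for LPS + MSU in Ncoa6-sufficient BMDMs from −0.12 to −0.0045. With 2 libraries per group, the depth sets a limit for Slfn1 in medium, at 2 to 10 reads per library.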
